A study of Mus musculus with 58 samples.

Results

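PU.1 ChIP-seq peaks of hematopoietic stem cells (HSCs) from old caloric-restricted (OCR) mice were compared with those from old ad libitum fed (OAL) mice. All peaks in the lists of 4 libraries were taken, 1 library per diet for each of 2 PU.1 antibodies. They held 15262 peaks, of 20341 in the 6 PU.1 libraries of the series. The other 2 libraries came from OCR mice that were fed ad libitum again (OCRRF). All animals were wild-type C57BL/6 males of 24 to 26 months, and OCR mice had received 40% less food than ad libitum from the age of 3 to 4 months. The labels call the ad libitum PU.1 libraries OWT. HSCs were sorted from bone marrow as lineage-negative, Sca-1 and c-Kit positive cells lacking CD34 and Flk2 and carrying CD150. For each PU.1 ChIP, 20000 cells were mixed with bacteria as carrier. The number of mice behind a library was not given in the sources used here. Antibody 1 is named in the labels of replicate 1 (Thermo). Antibody 2 (abcam) was read from the names of the deposited peak lists of replicate 2. The replicate number therefore stands for the antibody, and each diet and antibody had 1 library. The PU.1 values are given as a description of these libraries, and no test over libraries was made.

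PU.1, encoded by Spi1, is a transcription factor of the ETS family that binds DNA through a purine-rich motif with a GGAA core. It is needed for the formation of myeloid and lymphoid cells, it acts at low levels in HSCs, and it restrains their entry into the cell cycle. It can both activate and repress genes, often beside RUNX, C/EBP, IRF and AP-1 factors, and it is known to bind an element upstream of its own gene.

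The windows shown here carry the comparison: elements near Spi1 and Kdr, loci with a peak in OCR alone, and loci with a peak in OAL alone. Each is 121 bases of the plus strand of mm10 centred on the strongest summit of the locus. Capitals mark GAGGAAGT, the PU.1 motif searched, on either strand (ACTTCCTC on the other). Where it was absent from the window, capitals mark the GGAA or TTCC nearest to the summit.
Upstream of the protein-coding Spi1 TSS and inside the annotated gene span, peak in all 4 libraries (chr2:91083052-91083172): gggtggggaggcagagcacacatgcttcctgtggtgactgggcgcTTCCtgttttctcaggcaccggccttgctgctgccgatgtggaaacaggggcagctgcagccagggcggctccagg
Further upstream of Spi1, peak in OCR alone (chr2:91052046-91052166): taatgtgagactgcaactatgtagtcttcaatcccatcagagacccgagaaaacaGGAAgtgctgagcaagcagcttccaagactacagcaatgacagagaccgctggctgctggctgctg
Upstream of Kdr, peak in all 4 libraries (chr5:75981062-75981182): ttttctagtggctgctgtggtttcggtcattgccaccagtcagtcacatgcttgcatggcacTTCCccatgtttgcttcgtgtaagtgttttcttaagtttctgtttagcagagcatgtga
Intron of Etv6, peak in OCR alone (chr6:134065098-134065218): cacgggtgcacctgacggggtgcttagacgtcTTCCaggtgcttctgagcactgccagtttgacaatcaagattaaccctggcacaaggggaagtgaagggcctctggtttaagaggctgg
Nos3, peak in OCR alone (chr5:24365663-24365783): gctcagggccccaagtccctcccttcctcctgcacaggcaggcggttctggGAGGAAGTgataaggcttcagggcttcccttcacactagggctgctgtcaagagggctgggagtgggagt
Intron of Rnpep, peak in OCR alone (chr1:135282715-135282835): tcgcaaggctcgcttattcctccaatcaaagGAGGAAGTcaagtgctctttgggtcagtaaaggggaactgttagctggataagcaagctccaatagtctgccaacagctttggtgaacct
Intergenic, peak in OAL alone (chr15:87074779-87074899): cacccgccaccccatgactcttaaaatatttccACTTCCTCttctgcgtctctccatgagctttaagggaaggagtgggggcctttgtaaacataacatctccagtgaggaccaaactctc
Intron of Arnt2, peak in OAL alone (chr7:84279435-84279555): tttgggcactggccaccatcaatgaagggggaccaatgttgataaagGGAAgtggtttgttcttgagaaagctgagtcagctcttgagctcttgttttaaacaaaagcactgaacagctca

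More peaks were called in OCR than in OAL with each antibody. With antibody 1, 5464 peaks were called in OCR and 3046 in OAL. With antibody 2, 3852 peaks were called in OCR and 2900 in OAL. Fold enrichment, the signal at a summit over the local background that MACS2 estimated, had similar medians in the 4 lists: 8.40 in OAL and 7.86 in OCR with antibody 1, and 8.20 in OAL and 8.07 in OCR with antibody 2. The medians were thus not higher in the longer OCR lists, but lists of unequal length do not compare strength at the same sites. The peak lists carry no read counts, so the depth behind a peak is unknown here. The study's own depth values repeat the OCR label for PU.1, so which of them belong to OCR is not certain. All libraries labelled OCR there have fewer unique deduplicated reads than the OAL library of the same replicate number. The part of depth in the number of peaks was not tested.

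A peak was called shared when it overlapped a peak of the other diet with the same antibody by at least 1 bp. With antibody 1, 2758 of the OCR peaks (50.5%) had no OAL counterpart, and 338 of the OAL peaks (11.1%) had no OCR counterpart. With antibody 2, the numbers were 1537 OCR peaks (39.9%) and 585 OAL peaks (20.2%). The unshared peaks were the weaker ones of their lists. The median fold enrichment of OCR peaks with antibody 1 was 6.64 where unshared and 10.4 where shared, and with antibody 2 it was 6.78 and 9.86. The unshared OAL peaks had medians of 6.67 and 6.72, close to those of the unshared OCR peaks.

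Ranking each list by −log10 p showed where the unshared peaks lay. In the strongest of 4 equal bins of the OCR list with antibody 1, 5.42% of peaks had no OAL counterpart, and this share was 39.5%, 70.9% and 86.2% in the bins that followed. With antibody 2 the shares in OCR were 2.18%, 24.6%, 57.6% and 75.2%. The OAL lists had the same order at lower levels, from 0% to 29.3% with antibody 1 and from 0.552% to 45.9% with antibody 2. In all 4 libraries the strongest PU.1 sites were thus nearly all present under both diets.

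**Figure D1:**
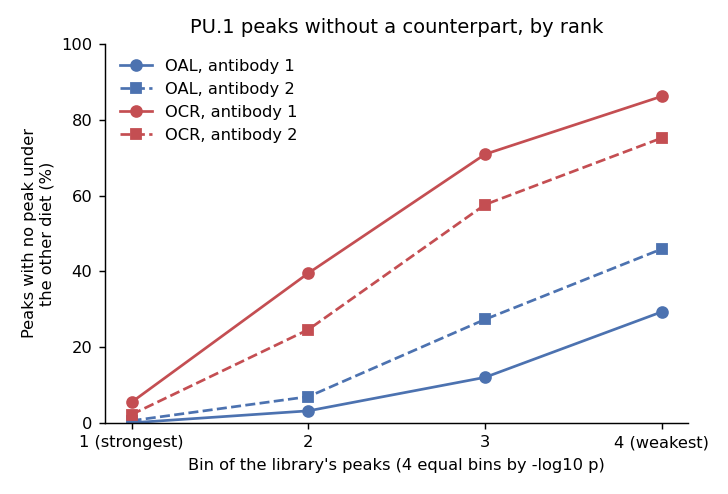
Share of PU.1 peaks (vertical axis, percent) with no peak under the other diet and the same antibody, in 4 equal bins of each library's peaks ranked by −log10 p (horizontal axis, strongest first), with 1 line per library. The share rises toward the weak end in every library, to 86.2% in OCR with antibody 1 and 29.3% in OAL with antibody 1.

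The peaks of the 4 libraries were merged into 6554 loci, of which 1908 (29.1%) had a peak in every library. A locus with a peak in both OCR libraries and in neither OAL library is called gained here, and the reverse is called lost. By this rule 559 loci (8.53%) were gained and 38 (0.580%) were lost. The antibodies shared only a part of the gain. Of 2756 loci with an OCR peak and no OAL peak by antibody 1, 20.3% were gained with both antibodies, and 1677 had no peak with antibody 2 under either diet. Of 1537 such loci by antibody 2, 36.4% were gained with both. At 213 loci antibody 1 found a peak only in OCR while antibody 2 found one only in OAL, and at 64 loci the antibodies were opposed the other way.

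The number of gained and lost loci depended on the length of the lists. When the longer list of each antibody was cut to the number of peaks in the shorter one, keeping the strongest by −log10 p, 149 loci were gained with both antibodies and 141 were lost. The antibodies were opposed at 121 and 126 loci, numbers of similar size, and 1707 loci had a peak in every library. Lists of equal length hold nearly equal numbers of unshared peaks by construction (808 gained and 805 lost loci with antibody 1, and 819 of each with antibody 2), so the near balance of 149 and 141 is no measure of a missing diet difference. Ranked by fold enrichment in place of −log10 p, 148 loci were gained and 160 were lost. Of the 559 gained loci, 39.9% ranked in the OCR list of antibody 1 within the length of its OAL list, and 56.5% did so with antibody 2.

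**Figure D2:**
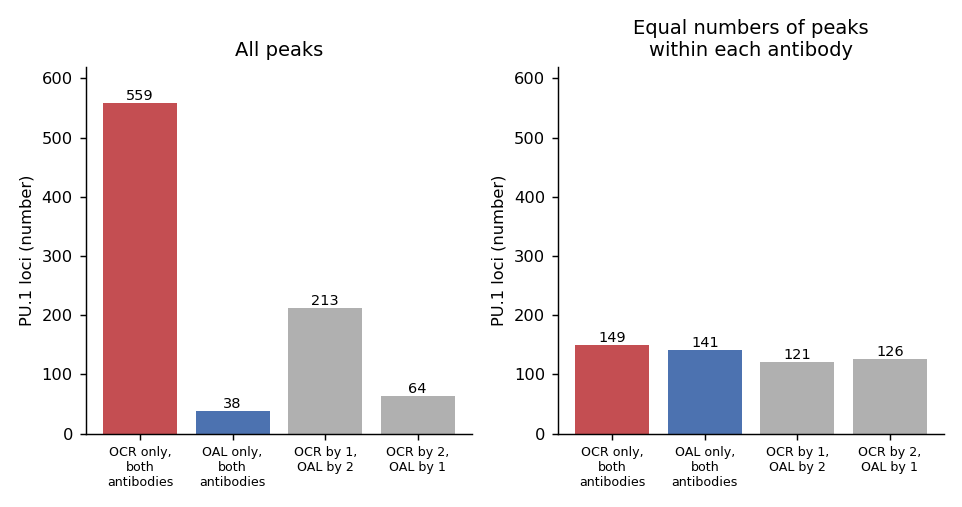
Number of PU.1 loci (vertical axis) with a peak in OCR alone by both antibodies, in OAL alone by both antibodies, or in opposite diets by antibodies 1 and 2 (horizontal axis), for all peaks (left) and for lists cut to equal length within each antibody (right). The left bars stand at 559 and 38 for OCR and OAL alone, and the right bars at 149 and 141, where equal list length itself brings the diets close to balance.

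At matched ranks the diets overlapped as much as the antibodies did. Of the 1000 strongest OCR peaks, 77.5% overlapped one of the 1000 strongest OAL peaks with antibody 1 and 76.4% with antibody 2. Between antibodies within a diet, the shares were 77.7% in OCR and 76.0% in OAL. With 2900 peaks from each library, the diets shared 73.8% (antibody 1) and 71.8% (antibody 2), the antibodies shared 74.3% in OCR and 72.3% in OAL, and the pairs that differed in both shared 72.7% and 72.7%. No pair of libraries stood apart by diet. In the same lists of 2900, 140 loci had a peak in the 2 OCR libraries alone, 136 in the 2 OAL libraries alone, and 117 to 125 in each of the other 4 pairs of libraries.

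**Figure D3:**
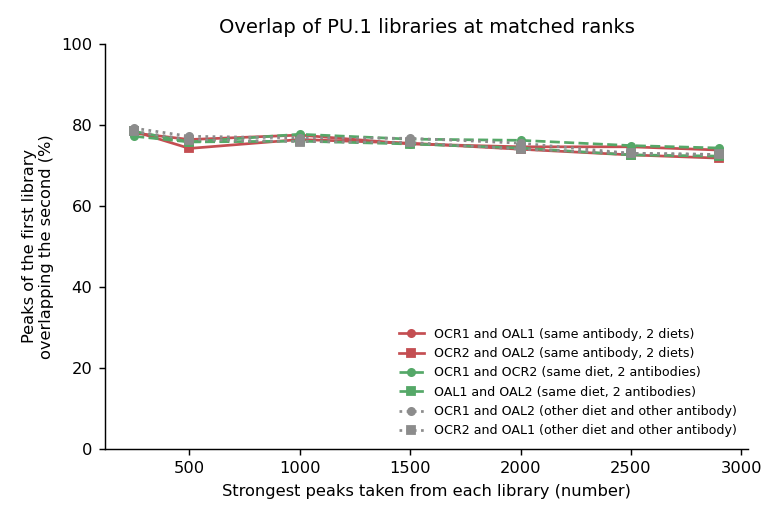
Share of peaks (vertical axis, percent) of the first library of a pair that overlap a peak of the second, when the same number of strongest peaks by −log10 p is taken from each (horizontal axis). The 6 lines are the pairs of the 4 libraries, and pairs that differ in diet (71.8% and 73.8% at 2900 peaks) lie among those that differ in antibody (72.3% and 74.3%).

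At loci with a peak under both diets, fold enrichment was slightly higher in OCR. The median ratio of OCR to OAL was 1.14 over 2705 loci with antibody 1, where 71.4% of loci were higher in OCR. With antibody 2 it was 1.08 over 2313 loci, and 64.5% were higher in OCR. A ratio above 1.5 was reached by 318 loci with antibody 1 (11.8%) and by 168 with antibody 2 (7.26%), and a ratio below its inverse by 35 (1.29%) and 36 (1.56%). The ratios of one antibody were nearly unrelated to those of the other. Over the 1908 loci with a peak in every library, the log2 ratios of the 2 antibodies had a Pearson r of 0.03 and a Spearman rho of 0.03. Levels of fold enrichment at the same loci correlated between libraries, with r from 0.78 to 0.79. These correlations run over loci, which share the libraries and are not independent replicates. A ratio above 1.5 with both antibodies was seen at 31 of the 1908 loci (1.62%), and at 6 after each antibody's median shift was removed. A ratio below the inverse of 1.5 with both was seen at 1 locus, and at 4 after that shift was removed.

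**Figure D4:**
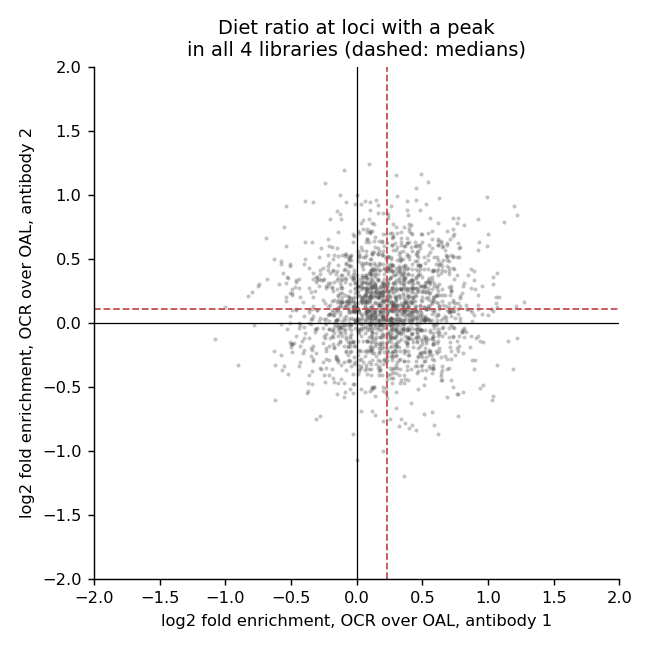
log2 of the OCR to OAL ratio of PU.1 fold enrichment with antibody 1 (horizontal axis) and antibody 2 (vertical axis), 1 point for each of the 1908 loci with a peak in all 4 libraries. The cloud is round, with r of 0.03, and its medians (dashed) lie at 0.23 and 0.11 on the log2 scale, above 0 with each antibody.

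The gained loci were weak sites in OCR. Their median fold enrichment was 7.03 (antibody 1) and 6.83 (antibody 2), against 12.2 and 10.7 at the loci with a peak in every library, and 3 and 5 of the 559 were among the 1000 strongest peaks of their OCR library. The lost loci were as weak in OAL, with medians of 7.00 and 6.61. Both classes are defined by the lack of a called peak under the other diet, which favours sites near the calling threshold. Their lower strength is thus in part set by the rule. In the refed libraries, 365 of the gained loci (65.3%) had no peak, 24.3% had one with OCRRF replicate 1, 16.3% with OCRRF replicate 2 and 5.90% with both. Of the lost loci, 57.9% had a peak in neither refed library. Of the loci with a peak in every OAL and OCR library, 74.4% had one in both. The refed lists were short, with 2817 and 2262 peaks, and the part of list length in these shares was not tested.

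In their genomic position the gained loci resembled the loci common to all libraries. Of the 559, 107 (19.1%) had their summit within 1000 bp of a protein-coding transcription start site (TSS), 20 lay in exons, 205 (36.7%) in introns and 227 (40.6%) between genes. The shares were 18.6% at promoters, 40.1% in introns and 38.9% between genes at the common loci. Most also lay in open chromatin. Of the gained loci 87.7% overlapped an ATAC-seq peak of the series, of the lost loci 78.9%, and of the common loci 93.2%. The median accessibility of those ATAC-seq peaks in OCR HSCs was 9.80 CPM (counts scaled by library size) at gained loci and 12.9 CPM at common loci, against 2.87 CPM at ATAC-seq peaks without a PU.1 locus. No OAL ATAC-seq library was used here.

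GAGGAAGT was found within 100 bp of the summit, on either strand, at 30.9% of gained loci, 29.7% of lost loci and 42.5% of common loci. The share was 4.83% in windows of the same length at ATAC-seq peaks without a PU.1 locus and 1.25% in windows 2000 bp beside the gained summits. With lists cut to equal length, 28.2% of gained and 30.7% of lost loci held it. The share followed peak strength as well: in OCR with antibody 1 it was 46.3% in the strongest bin and 31.4% in the weakest bin among shared peaks, and 33.8% and 28.3% among unshared peaks. The related ETS motif ACAGGAAGT was at 5.90% of gained, 8.11% of lost and 5.24% of common loci, against 2.04% of ATAC-seq peaks without PU.1. The RUNX motif TGTGGTT was at 9.12% of gained and 10.4% of common loci, near the 9.40% at ATAC-seq peaks without PU.1. The GATA motif AGATAAG was at 2.50% of gained and 3.91% of common loci, against 3.58% at those peaks. The AP-1 motif TGACTCA was at 5.19% of gained and 6.03% of common loci, against 7.04%, and at 6 of 37 lost loci (16.2%, and 8.57% of lost loci with lists of equal length). The C/EBP motif TTGCGCAA was at 0 of 559 gained and at 2 of 1891 common loci. These are matches of letters in a window and not measured sites of those factors.

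Promoters with a gained PU.1 peak had higher H3K4me3 and lower H3K27me3 medians in OCR HSCs than promoters of genes without a PU.1 locus, a difference given without a test. H3K4me3, a mark of active promoters, had median signals of 31.3 and 30.6 in its 2 OCR libraries at genes with a gained promoter locus, and 32.7 and 31.5 at genes with a common promoter locus. It was 10.4 and 9.79 at protein-coding genes with no PU.1 locus within 50 kb. H3K27me3, a mark of Polycomb repression, had medians of 0.171 and 0.175 at gained promoters, 0.170 and 0.186 at common promoters, and 0.425 and 0.434 at genes without a locus. Gained and common promoters thus had similar levels of both marks. The signal is the authors' mean per base in a window that runs downstream from the TSS, taken from the highest transcript of each gene.

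Spi1 itself (chr2:91082390-91115756, plus strand) had 4 PU.1 loci within 50 kb of its protein-coding TSS. The strongest, 25.4 kb upstream and nearest to the Slc39a13 start, had fold enrichments of 23.2 in OAL and 24.0 in OCR with antibody 1, and of 23.4 and 22.7 with antibody 2. The diets did not differ in one direction there. The element 13.0 kb upstream, in an intron of the annotated gene and the first of the windows above, had 8.50 in OAL and 15.0 in OCR with antibody 1, and 5.49 and 9.29 with antibody 2, higher in OCR with each. That direction was shared by 994 of the 1908 loci with a peak in every library. The element was also among the 31 of these loci (1.62%) with a ratio above 1.5 with both antibodies. A gained locus 44.0 kb upstream, nearest to the Psmc3 start, had 5.17 and 7.59 in OCR, and a peak 36.2 kb downstream, in Mybpc3, was found only in OCR with antibody 2 (7.70). Spi1 RNA was 52.0, 58.3, 54.4 and 57.2 CPM in OAL and 63.2, 62.8, 58.1 and 58.1 CPM in OCR. The lowest OCR values and the highest OAL value overlapped, and the difference was 0.13 ± 0.08 on the log2 scale (SE, n = 4 per diet), with an edgeR adjusted p of 0.517.

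Kdr (chr5:75932827-75978458, minus strand), which encodes the main VEGF receptor, had 1 PU.1 locus within 50 kb, 2.66 kb upstream of its TSS and present in all 4 libraries. Its fold enrichment was 8.53 in OAL and 13.0 in OCR with antibody 1, and 10.0 and 12.1 with antibody 2, higher in OCR with each. The same direction with both antibodies was seen at 994 of the 1908 loci with a peak in every library, so it is not particular to Kdr. Kdr RNA was 43.6, 47.1, 41.0 and 42.6 CPM in OAL and 13.8, 17.7, 20.7 and 26.8 CPM in OCR. All OCR libraries were below all OAL libraries, with a log2 difference of -1.14 ± 0.13 (SE, edgeR adjusted p = 7.80e-07). Bmpr1a, a BMP receptor gene whose RNA fell by 0.76 ± 0.12 on the log2 scale (edgeR adjusted p = 6.58e-05), had no PU.1 peak within 50 kb of its starts in these 4 lists. Its levels were 45.2, 41.3, 42.0 and 27.9 CPM in OAL and 22.7, 23.5, 22.3 and 23.7 CPM in OCR, without overlap.

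The 10 strongest gained loci, ranked by the smaller of their 2 OCR fold enrichments, held values from 8.95 to 11.6 by that measure. The first lay 4.55 kb from the TSS of Tcp11, a testis gene, with fold enrichments of 12.3 and 11.6 in OCR. It was followed by the promoter of Tacc1, a gene of centrosome and microtubule function (12.0 and 11.5), by Olfr446, an olfactory receptor gene (11.3 and 10.9), and by the intron of Etv6, which encodes an ETS repressor of blood cells (10.5 and 10.4). A locus in an intron of Adarb2, with no TSS within 50 kb, had 16.6 and 9.74. The others were at Nos3, the endothelial nitric oxide synthase gene (10.3 and 9.73), Pde4d, a cAMP phosphodiesterase gene (10.6 and 9.67), Rnpep, an aminopeptidase gene (10.4 and 9.21), Ssr4, of the translocon-associated complex (10.9 and 9.11), and Rnase2b, a ribonuclease gene (9.93 and 8.95). Of these 10 loci, 4 held GAGGAAGT within 100 bp, 3 had a peak in both refed libraries and 3 in neither. The RNA of the 8 nearest genes that could be tested did not pass the test (edgeR adjusted p from 0.184 to 0.939), with 2 of them at an unadjusted p below 0.05 and 0 called by DESeq2.

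By the smaller of their 2 OAL fold enrichments, the 10 strongest lost loci held values from 6.80 to 8.06. They were picked from 38 lost loci and the gained ones from 559, so the 2 ranges do not compare the classes. Of these 10 lost loci, 6 had no protein-coding TSS within 50 kb. The strongest was intergenic on chromosome 1 (14661915 to 14662194), with 8.53 and 8.06 in OAL. Others lay in introns of Arnt2, a bHLH-PAS factor gene (8.91 and 7.79), Adam10, which encodes a sheddase that cleaves Notch (10.2 and 7.39), Bicd1 (7.74 and 7.03) and Kdm6b, an H3K27 demethylase gene (7.11 and 6.99), and at the promoters of Ppan (7.42 and 7.09) and Trpv2, a cation channel gene (9.08 and 6.80). Of these 10 loci, 2 held GAGGAAGT, 7 had a peak in OCRRF replicate 1 and 0 had one in both refed libraries. The 4 nearest genes tested had edgeR adjusted p between 0.198 and 0.951, with 1 of them at an unadjusted p below 0.05 and 0 called by DESeq2.

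RNA-seq of the same diets, with 4 libraries each and 27979109 to 34385179 counts per library, was set beside the loci. A gene was assigned to a locus when its TSS was the nearest within 50 kb, and was called changed at an edgeR adjusted p below 0.05 and a fold above 1.2. Of 379 tested genes nearest to a gained locus, 48 changed (12.7%), against 5.57% of all 27150 genes tested. Of these, 19 were higher in OCR (5.01%, against 2.54% of all genes) and 29 were lower (7.65%, against 3.03%). Among 1235 genes nearest to a common locus the share called was 10.9%, and among protein-coding genes with no locus within 50 kb it was 6.70%. These sets differ in level, since the median was 46.2 CPM near gained loci, 47.4 CPM near common loci and 8.79 CPM at genes without a locus, and low genes are called less often. Among genes of 20 to 100 CPM, 6.13% near gained loci rose and 7.98% fell, against 4.85% and 4.97% of genes without a locus and 5.62% and 6.20% near common loci. Genes near gained loci did not move one way, and their median log2 difference was -0.02, against 0.02 over all genes tested. In bulk libraries of sorted cells, fewer cells of a type and less RNA per cell cannot be told apart.

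With lists cut to equal length, 16 of 100 tested genes nearest to a gained locus changed (7 higher, 9 lower), and 9 of 84 nearest to a lost locus (4 higher, 5 lower). These are 16.0% and 10.7%, against 5.57% of all genes tested and 10.4% of genes nearest to any PU.1 locus. Of 25 tested genes nearest to a lost locus in the full lists, 2 changed: Hjurp, which loads the centromeric histone, rose by 0.41 ± 0.08 on the log2 scale (edgeR adjusted p = 0.00153), and Myo6, a motor protein gene, fell by 0.60 ± 0.12 (edgeR adjusted p = 0.00119). Both were named after their values were seen.

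Among called genes near gained loci whose diets did not overlap and whose mean reached 5 CPM, the largest rises were those of Fignl1, Cenph, Tedc1, Cit and Timeless. Fignl1, an ATPase gene of recombination repair 45.6 kb from a gained locus in an intron of Ikzf1, was 22.3, 18.5, 18.1 and 17.7 CPM in OAL and 57.6, 59.9, 45.4 and 42.0 CPM in OCR. Its log2 difference was 1.42 ± 0.12 (SE, edgeR adjusted p = 2.40e-09). Cenph, a kinetochore gene, had a gained locus at its TSS (chr13:100775760-100776061) with fold enrichments of 6.00 and 6.08. Its RNA was 5.74, 5.23, 4.67 and 5.94 CPM in OAL and 14.1, 14.0, 12.5 and 11.6 CPM in OCR, a log2 difference of 1.28 ± 0.15 (edgeR adjusted p = 5.87e-07). Timeless, a replication fork gene, had a gained locus 312 bp from its TSS (6.72 and 7.34). It was 17.1, 17.9, 20.1 and 16.2 CPM in OAL and 37.2, 50.4, 32.0 and 27.7 CPM in OCR, a log2 difference of 1.05 ± 0.14 (edgeR adjusted p = 4.37e-06). Cit, the cytokinesis kinase gene (515 bp), and Tedc1, of centriole function (12.0 kb), each rose by 1.10 on the log2 scale. Polq, the polymerase theta gene, rose by 0.63 with an edgeR adjusted p of 0.0106, which was 0.0515 without OAL replicate 3. Cgas, the cytosolic DNA sensor gene, rose by 0.62, and Sept11, a septin gene, by 0.56.

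Among genes near gained loci that fell, Cyp26b1, which encodes an enzyme that degrades retinoic acid, changed most by the same rule. It was 69.8, 89.4, 67.0 and 78.0 CPM in OAL and 21.9, 32.9, 33.4 and 43.0 CPM in OCR, a log2 difference of -1.21 ± 0.13 (SE, edgeR adjusted p = 2.31e-07), and its gained locus lay 30.2 kb away in an intron of Exoc6b. Txnip, an inhibitor of thioredoxin and of glucose uptake, was the most abundant. Its RNA was 2278, 2179, 2439 and 2784 CPM in OAL and 1168, 1019, 1113 and 1283 CPM in OCR, a log2 difference of -1.08 ± 0.09 (edgeR adjusted p = 2.99e-09), with a gained locus 6.93 kb from its TSS (7.39 and 5.78). Junb, an AP-1 gene with a gained locus 35 bp from its TSS (6.69 and 5.29), was 99.5, 69.9, 62.7 and 74.2 CPM in OAL and 59.8, 50.7, 47.7 and 43.9 CPM in OCR, and fell by 0.60 ± 0.11 on the log2 scale (edgeR adjusted p = 0.000862). Chad, a cartilage matrix gene, fell by 0.95, Inpp4b, a phosphoinositide phosphatase gene, by 0.66, and Wwtr1, the gene of the coactivator TAZ, by 0.53. Slc30a1, a zinc exporter gene, fell by 0.58 (edgeR adjusted p = 0.0149, and 0.0884 without OAL replicate 4 and 0.0743 without OCR replicate 1). Synpo, an actin-binding protein gene, fell by 0.54 (edgeR adjusted p = 0.0339). Its call was lost without OAL replicate 1 (0.135), 2 (0.0845) or 4 (0.145) and without OCR replicate 1 (0.136), 2 (0.0715) or 4 (0.0515).

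**Figure D5:**
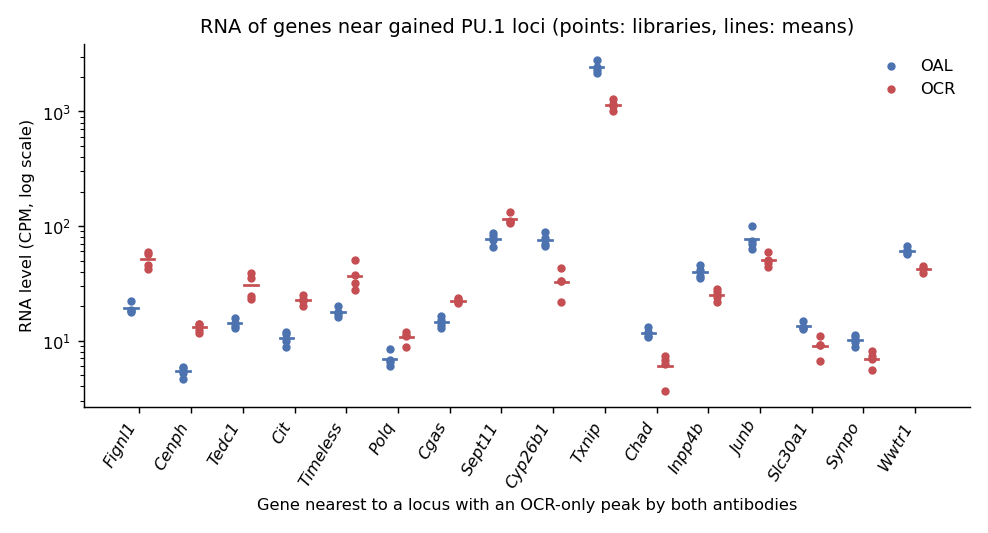
RNA level (vertical axis, CPM on a log scale) of the 8 genes with the largest rise and the 8 with the largest fall among genes nearest to a gained PU.1 locus (horizontal axis), with 1 point per library, 4 per diet, and a line at each mean. These genes were selected for passing the test without overlap of the diets and at a mean no lower than 5 CPM, as with Txnip at 1019 to 1283 CPM in OCR and 2179 to 2784 CPM in OAL.

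Gene lists give the same comparison by role. Of 21701 protein-coding genes, 979 (4.51%) had a gained locus within 50 kb of a TSS and 2779 (12.8%) a common one. A locus of any kind lay there at 7889 genes (36.4%) and a lost one at 100. In a list of 40 myeloid genes known as PU.1 targets, 28 (70.0%) had a PU.1 locus of some kind and 14 (35.0%) a common locus. A gained locus was found for 6 (15.0%: Csf2ra, Fcer1g, Tyrobp, Cd14, Btk and Vav1) and a lost one for 2 (Cyba and Ptpn6). The strongest of these gained loci by antibody 1, with 11.1 and 6.72, was 18.0 kb from Btk, a kinase of B cell and myeloid signalling, and nearest to Hnrnph2. The RNA of these 8 genes did not pass the test. Csf2ra, the GM-CSF receptor gene, had a log2 difference of -0.23, Fcer1g, a signalling chain gene, one of -0.36 (edgeR adjusted p = 0.141, and 0.0286 without OCR replicate 1), Cd14, a lipopolysaccharide receptor gene, one of -0.54, and Vav1, a signalling gene of blood cells, one of -0.12. Those of Tyrobp, Btk, Cyba and Ptpn6 were 0.23, -0.00, 0.06 and 0.02. In the whole list 4 genes rose (Itgam, Itgb2, Ncf4 and Cd68; 10.0%, against 2.54% of all genes tested) and 1 fell (Prtn3; 2.50%, against 3.03%), and these 5, named after their values were seen, had no gained locus.

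Of 14 ETS family genes, 13 (92.9%, against 36.4% of protein-coding genes) had a PU.1 locus within 50 kb. A gained one was found for 7 (50.0%, against 4.51%): Spi1, Spib, Fli1, Elf2, Etv6, Elk3 and Elk4. Their RNA differed little. Of 13 tested genes 0 passed the edgeR test, 3 had an unadjusted p below 0.05 and 1 was called by DESeq2, and the median log2 difference was 0.04. Elk3 was 102 to 108 CPM in OAL and 86.7 to 94.9 CPM in OCR, a log2 difference of -0.20 ± 0.08 (edgeR adjusted p = 0.162), and Elf2 differed by 0.13, Elk4 by 0.06, Etv6 by 0.04 and Fli1 by -0.00. Among 25 blood transcription factors that share sites with PU.1 or oppose it, Cebpa, Gfi1b, Fos and Ikzf1 had a gained locus. This was 16.0%, against 4.51% of protein-coding genes. These 4 genes did not pass the test. Ikzf1, a lymphoid factor gene, differed by 0.13 on the log2 scale, Fos by -0.41, Cebpa by -0.57 at a level below 2 CPM, and Gfi1b by 0.32 (edgeR adjusted p = 0.260, and 0.0415 without OAL replicate 3 or 0.0454 without OCR replicate 3). Of the 25, Runx3 and Gata1 rose (8.00%, against 2.54% of all genes tested) and Cebpb, Gfi1 and Jun fell (12.0%, against 3.03%). These 5 had no gained locus and were named after their values were seen.

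Of 36 cell cycle genes, 25 rose in OCR (69.4%, against 2.54% of all genes tested) and 1 fell (2.78%, against 3.03%). The gene that fell was Mycn, named after its values were seen. The median log2 difference of the list was 0.81. A gained PU.1 locus lay within 50 kb of 3 of the 36 genes (8.33%, against 4.51% of protein-coding genes). Ccnb1, the cyclin B1 gene, rose by 1.48 ± 0.14 on the log2 scale (edgeR adjusted p = 2.92e-08). It lies 10.5 kb from the gained locus at the Cenph start. Cdc25c, a mitotic phosphatase gene with a gained locus at 26.3 kb, rose by 1.34 ± 0.17 (edgeR adjusted p = 1.94e-06). Cdkn1c, which encodes the p57 cell cycle inhibitor of quiescent HSCs, had a gained locus at 12.7 kb and a log2 difference of -0.14 (edgeR adjusted p = 0.528). Cdk2 had a lost locus at 10.7 kb and rose by 0.28 (edgeR adjusted p = 0.0471). That call was lost without any 1 of 5 libraries, with an adjusted p of 0.105, 0.0625 and 0.145 without OAL replicate 1, 2 and 3, and of 0.171 and 0.151 without OCR replicate 1 and 2. Of 24 genes known to be high in old HSCs, 18 fell (against 3.03% of all genes tested), and those with a gained locus, Fhl1 (log2 difference -0.16) and Slamf1 (0.11), were not among them. Of 11 VEGF and BMP receptor and co-receptor genes, 4 fell (36.4%, against 3.03% of all genes tested). They were Kdr and Bmpr1a, and also Nrp2 and Eng, which were named after their values were seen. A common locus lay within 50 kb of 4 of the 11 (36.4%, against 12.8% of protein-coding genes).

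ATAC-seq of OCR HSCs (4 libraries) and OCRRF HSCs (2 libraries), with 15721335 to 19558148 counts each, showed little change at gained loci on refeeding. A peak was called changed at an edgeR adjusted p below 0.05, a fold above 1.5 and a mean above 1.5 log2 CPM. Of 487 tested ATAC-seq peaks at gained loci, 1 was lower in OCRRF and 0 were higher, by DESeq2 also 1 and 0. This was 0.205%, against 0.221% of all 123372 peaks tested (0.130% higher and 0.0908% lower). At an unadjusted edgeR p below 0.05, 46 of the 487 were lower and 37 higher. By that measure 6843 of all 123372 peaks were lower and 7594 higher, and 162 and 129 of 1777 at common loci. The median log2 difference was -0.04 at gained loci, -0.02 at common loci and -0.01 over all peaks. The lower peak, named after its values were seen, was at an intergenic gained locus (chr3:149957015-149957283). It had 21.8, 19.0, 21.1 and 15.2 CPM in OCR and 10.1 and 12.8 CPM in OCRRF, a log2 difference of -0.76 ± 0.14 (edgeR adjusted p = 0.00289), and the count was 0 without OCRRF replicate 1 and 2 without OCR replicate 4.

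The sorted populations were checked by markers in the RNA. The summed level of 10 HSC markers was 4326 to 4908 CPM in OAL and 3777 to 4544 CPM in OCR. Of the 10, 4 fell (40.0%, against 3.03% of all genes tested), among them Ly6a, Procr and Fgd5. Of 10 genes of antigens used in the sort or of blood lineages, Ly6g was too low to test. Of the others 1 rose (Itgam, 11.1%, against 2.54% of all genes tested). The sum was 429 to 508 CPM in OAL and 443 to 511 CPM in OCR, most of it Ptprc and Cd34. Neutrophil markers summed to 5.53 to 87.4 CPM in OAL and 4.50 to 102 CPM in OCR, so they varied within both diets. B cell markers summed to 39.5 to 44.9 and 38.9 to 45.9 CPM and macrophage markers to 9.14 to 25.5 and 12.7 to 14.9 CPM in OAL and OCR. Of 6 erythroid markers, Hbb-bs and Hba-a1 fell (33.3%, against 3.03% of all genes tested) and Epor rose (16.7%, against 2.54%). The erythroid sum was 43.3 to 217 CPM in OAL and 48.2 to 78.1 CPM in OCR. The part of other cell types in the peak lists was not tested. The study gives its RNA replicates as mice, while the labels do not tie a library to an animal.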

How the data were processed

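PU.1 peaks, RNA-seq counts, ATAC-seq counts and histone promoter signals of mouse HSCs were used as deposited, without the reads. For PU.1, the authors mapped trimmed reads to mm10 with BWA, removed duplicates and called peaks on each library with MACS2 (FDR 0.05). The control sample is not given in the sources used here. Each deposited peak carries a score, its enrichment as a ratio (fold), and −log10 values for p and q. RNA counts per gene (STAR, featureCounts) and ATAC-seq counts per consensus peak were deposited by the authors, who did not state strand handling in the text used here. Histone signal was deposited by the authors as a mean per base of windows that, in the files, run downstream from the TSS. Columns without a sample numbered 0.

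Loci were peaks merged at an overlap of at least 1 bp. Lists were cut to equal length by −log10 p. Positions came from protein-coding genes of GENCODE M21 basic and sequences from GRCm38.p6. Counts were tested with edgeR 4.0.16 (quasi-likelihood, TMM, Benjamini-Hochberg), with DESeq2 1.42.0 as an alternative, in R 4.3.3. The scripts were tested on simulated data. Named loci and genes were those near Spi1, Kdr and Bmpr1a, the 10 strongest loci per direction, the 8 largest rises and falls near gained loci (at least 5 CPM, no overlap of diets), and list members near a gained or lost locus. Loci, lists and rules were chosen with earlier results of these data known. Alternatives covered the overlap, the q threshold, the ranking, gene assignment, normalization, filtering, the replicate block and leaving out libraries.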

Additional observations from a re-analysis of the deposited data

Results flagged for a closer look

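Among 84 groups of 4 libraries, 7 held 1 library far from the other 3 by Dixon's criterion, which by chance marks about 1 group in 20. For Sept11 the highest OCR library was at 133 CPM, for Fcer1g the highest OCR library at 20.2 CPM, and for Cebpa the highest OCR library at 0.764 CPM. In OAL the highest library was at 2.68 CPM for Tyrobp, at 339 CPM for Ptpn6, at 119 CPM for Gfi1b and at 4.51 CPM for Fos.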

How the results depend on the processing

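Counts of gained and lost peaks stayed within 1.5 times under an overlap of at least 50% of the narrower peak. So they did with summits within 100 bp and with a q below 0.01. The diet overlap of the 1000 strongest peaks with antibody 1 was 77.5%, 75.7% ranked by fold enrichment and 76.9% by the summit rule. With antibody 2 these were 76.4%, 75.7% and 76.1%. With 1 antibody in place of both, gained loci numbered 1537 to 2756 and lost loci 337 to 585, chosen after seeing the data. By −log10 p, the median log2 ratio at shared loci was 0.29 with antibody 1 and 0.11 with antibody 2. Genes near gained loci that were higher and lower in OCR numbered 38 and 53 with every TSS within 50 kb, 42 to 77 and 68 to 107 with gained peaks of 1 antibody alone, and 7 and 9 at matched ranks. With a TSS within 10 kb, 16 rose and 16 fell. Without single RNA libraries, 13 to 25 rose and 20 to 29 fell. Whether replicate numbers pair the libraries was not settled. Same-numbered RNA libraries had correlations of their deviations from -0.02 to 0.15, and RNA libraries of different numbers from -0.18 to 0.09. Same-numbered ATAC-seq libraries had -0.01 and -0.01. With the replicate block, 17 genes rose and 26 fell, 0 ATAC-seq peaks at gained loci were higher and 5 were lower, and ATAC-seq calls over all peaks were 764 in place of 273. Without single ATAC-seq libraries these were 98 to 367, and 0 to 2 peaks were lower at gained loci. By block, Synpo had an adjusted p of 0.0576 and Cdk2 of 0.0573. Cdk2 had 0.0532 with DESeq2 size factors and 0.0874 without a filter on low counts, and Gfi1b 0.0256 without that filter. For genes with a log2 difference near 0, leaving out 1 library turned the sign: over these settings Btk ranged from -0.05 to 0.04, Fli1 from -0.05 to 0.04, Etv6 from -0.01 to 0.09, Cyba from -0.01 to 0.14 and Ptpn6 from -0.01 to 0.07, with single values of 0.01 for Btk, 0.00, 0.01 and 0.02 for Fli1 and -0.00 for Etv6. The causes were not tested. The peak lists give no depth, and with 1 library per diet and antibody the error at a single locus was not estimated.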
